A study of Mus musculus with 34 samples.

Results

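The 9 genes described here handle iron, heme and metals: Ftl1 and Fth1 (the light and heavy chains of ferritin, the iron storage shell), Hmox1 (heme oxygenase, which breaks heme down and frees its iron), Slc40a1 (ferroportin, the iron exporter), Tfrc (the transferrin receptor, which brings iron in), Slc11a1 (a metal transporter of the phagosome), Cp (ceruloplasmin, a copper enzyme that oxidises exported iron) and Mt1 and Mt2 (metallothioneins, small proteins that bind zinc and copper). They were chosen by name from 32098 listed genes, and 9 of 9 were listed and passed the filter on low values in both tables. The data are RNA-seq libraries of the stromal vascular fraction (SVF) of visceral fat, the pellet of immune, stromal, vascular and mesothelial cells left when adipocytes float off after collagenase digestion. All mice were C57BL/6J males that began a high fat diet (HFD, 60% of calories from fat) or a control diet (CHOW) at 6 weeks of age, and all were fasted for 6 hours before tissue was taken. There were 4 CHOW and 6 HFD libraries after 8 weeks on diet, 5 and 6 after 20 weeks, and 7 and 6 after 34 weeks. No gene was altered in any group. The labels allow either of a pair of control formulas and do not say which mouse ate which, and the sources used here do not say whether the cohorts of each time were run together, so time on diet, age and cohort cannot be told apart.

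Macrophages recycle iron. They take up hemoglobin and dying red cells, open the heme with heme oxygenase, and store the iron in ferritin or release it through ferroportin. Iron regulatory proteins bind a hairpin in the mRNA, the iron-responsive element: at the start of the ferritin and ferroportin messages binding blocks translation, and in the tail of the transferrin receptor message it protects the RNA from decay. Metallothionein genes are switched on by zinc through the factor MTF1 and also by glucocorticoids. In fat, resident macrophages with high iron content are known, and obesity changes how adipose macrophages handle iron.

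The iron-responsive elements are shown because they are what the 4 messages under that control share, and because the RNA levels given here do not measure the translation that those hairpins govern. They were found by a search of GENCODE M21 transcripts for a bulged C, 5 bases, the loop CAGTGN and 5 bases that pair with the first 5 (G with T allowed), which is the DNA spelling of the hairpin. Each is 27 bases, given 5′ to 3′ on the strand of the gene, with the loop in capitals. Of 58797 protein coding transcripts, 0.961% held such a match. Tfrc, with 4, was the only transcript with 4 or more.
Ftl1, 5′ UTR, GRCm38 chr7:45459780-45459806, minus strand: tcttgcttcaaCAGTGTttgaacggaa
Fth1, 5′ UTR, chr19:9982733-9982759, plus strand: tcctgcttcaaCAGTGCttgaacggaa
Slc40a1, 5′ UTR, chr1:45925466-45925492, minus strand: aacttcagctaCAGTGTtagctaagtt
Tfrc element 1, 3′ UTR, chr16:32631220-32631246, plus strand: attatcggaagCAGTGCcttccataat
Tfrc element 2, 3′ UTR, chr16:32631599-32631625, plus strand: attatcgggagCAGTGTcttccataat
Tfrc element 3, 3′ UTR, chr16:32631664-32631690, plus strand: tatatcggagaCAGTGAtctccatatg
Tfrc element 4, 3′ UTR, chr16:32631711-32631737, plus strand: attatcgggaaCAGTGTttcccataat
The transcripts searched for Hmox1, Slc11a1, Cp, Mt1 and Mt2 held no match.

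Levels are given in TPM, a length-corrected share of each library, with 1000000 as the total. TPM keeps no read depth, so the depth of each library is unknown and no counting interval can be given. Between 13200 and 17213 genes reached 1 TPM per library. The macrophage markers were present in every group, with 12 of 12 at a median of 1 TPM or more. Some libraries stood apart. HFD replicate 3 at 8 weeks held 123060 TPM of seminal vesicle genes, HFD replicate 6 at 8 weeks had the largest hemoglobin share (26.7%), CHOW replicate 2 at 20 weeks had the highest macrophage marker sum of its group (14884 TPM), and CHOW replicates 5, 6 and 7 at 34 weeks had adipocyte marker sums of 21455, 68929 and 25608 TPM against 2906 to 7909 in the other 4. Where leaving them out together changed the call of a gene described here or of a ratio, the change is stated. Germ cell genes summed to 48.7 to 13374 TPM on HFD at 20 weeks (median 1402) against 27.7 to 297 on CHOW. At 34 weeks they summed to 50.2 to 5816 TPM on HFD (median 253) against 20.4 to 81.2 on CHOW. At 8 weeks the sums were 34.1 to 1229 TPM on HFD and 32.4 to 609 on CHOW. Fewer cells of a type and less RNA per cell cannot be told apart in these bulk libraries.

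**Figure D1:**
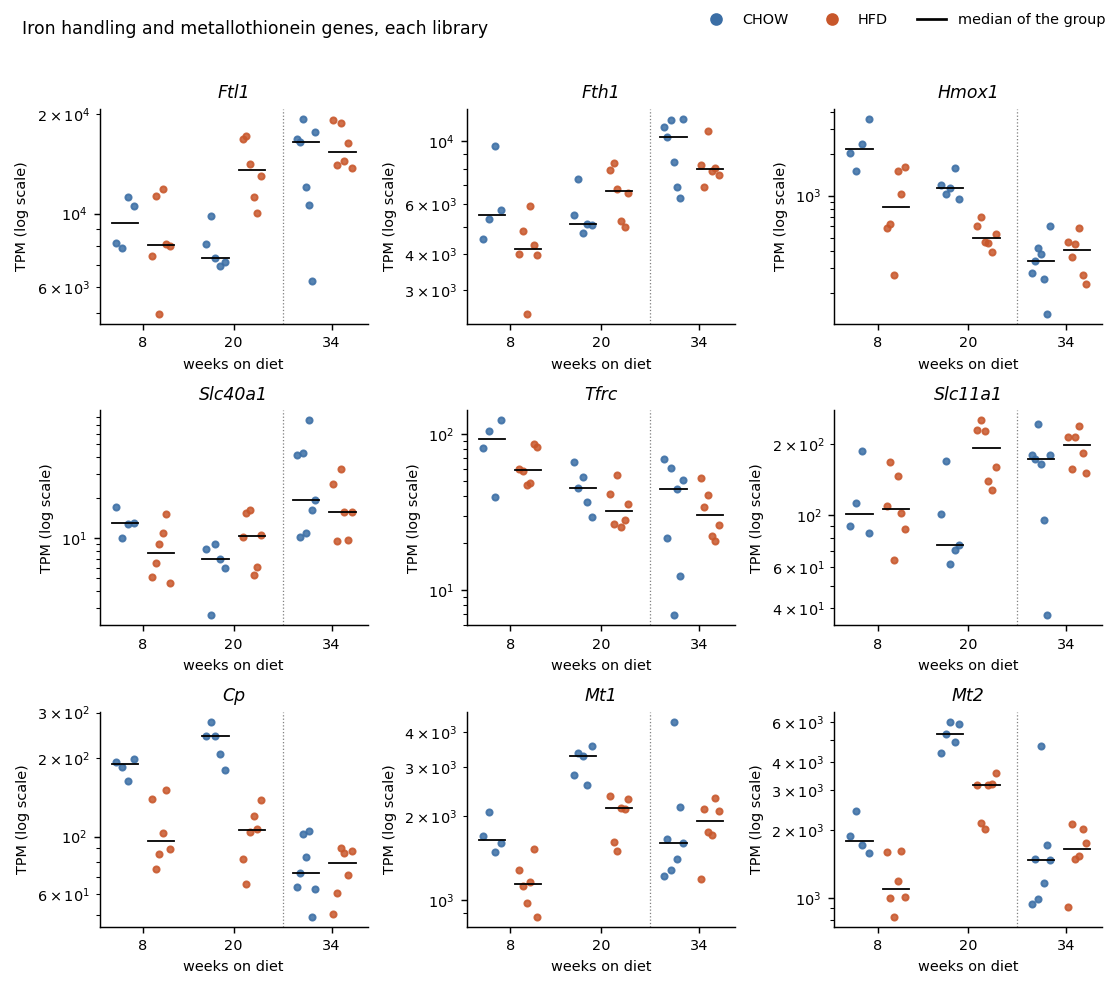
Level of each gene in every library, in TPM on a log axis, by weeks on diet, with CHOW in blue, HFD in orange and the group median as a line; the dotted line separates the tables, which were made apart. The metallothionein medians were highest on CHOW at 20 weeks, and Cp and Hmox1 did not overlap between diets at 20 weeks.

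The ferritin chains were among the most abundant messages of the SVF. Ftl1 (chromosome 7, 45457944 to 45459884 in GRCm38) was the highest gene of all in every HFD library of 20 weeks, and together the chains made up 2.04% ± 0.424 (SD, n = 6) of the TPM total there against 1.34% ± 0.219 (n = 5) on CHOW. At 20 weeks the 5 CHOW libraries held 8091, 9827, 7337, 6927 and 7132 TPM of Ftl1, while HFD ran from 10073 through a median of 13587 to 17123. The groups did not overlap. Ftl1 rose by 0.79 ± 0.21 on the log2(TPM + 1) scale (SE, 1.73-fold, adjusted p = 0.0165, limma). The call was lost without CHOW replicate 4 of 20 weeks, with an adjusted p of 0.0503. It was also lost without the filter on low values (adjusted p = 0.113). With the macrophage score as a covariate the difference was 0.32 (adjusted p = 0.314). It was 0.43 with hemoglobin and 0.27 with the adipocyte score (adjusted p = 0.337 and 0.615).

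Fth1 (chromosome 19, 9980598 to 9985098), the chain with the ferroxidase site, moved less. The CHOW libraries of 20 weeks held 5487, 7346, 4773, 5101 and 5091 TPM, and the HFD libraries 4987 to 8380 with a median of 6692, so that the groups overlapped. Its difference was 0.25 ± 0.22 log2 (95% interval −0.21 to 0.70, adjusted p = 0.475). From 8 to 20 weeks on HFD, Ftl1 rose by 0.70 ± 0.20 (adjusted p = 0.0316) and Fth1 differed by 0.66 ± 0.21 (adjusted p = 0.0507). The Ftl1 call over time was lost without any 1 of 7 libraries, HFD replicates 1, 2 or 3 of 20 weeks or 1, 3, 5 or 6 of 8 weeks, with adjusted p of up to 0.0651. That call was also lost under 6 of the other alternatives (adjusted p of up to 0.924), among them the fit without the libraries that stood apart. Fth1 over time on HFD was called in 4 of 12 fits without 1 library (adjusted p down to 0.0247). It was also called under 4 of the 14 other alternatives (down to 0.0169), and under 1 its sign reversed. At 8 weeks Ftl1 stood at 8143, 7901, 11234 and 10544 TPM on CHOW and at 4970 to 11913 on HFD (median 8038). At 34 weeks it stood at 6250 to 19346 on CHOW (median 16526) and 13752 to 19156 on HFD (median 15383). Fth1 held 4549, 5329, 9617 and 5715 TPM on CHOW and 2467 to 5900 on HFD (median 4165) at 8 weeks, and 6309 to 11981 on CHOW (median 10353) and 6930 to 10830 on HFD (median 7961) at 34 weeks. The diets overlapped for both chains at those times and neither was called.

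The balance between the chains separated the diets at each time. The ratio of Ftl1 to Fth1 within a library does not depend on how much of the library other RNA takes. On CHOW it was 1.79, 1.48, 1.17 and 1.84 at 8 weeks, and on HFD 1.86 to 2.34 with a median of 2.01. At 20 weeks it was 1.47, 1.34, 1.54, 1.36 and 1.40 on CHOW, and 1.98 to 2.14 on HFD (median 2.06). At 34 weeks it was 0.991 to 1.62 on CHOW (median 1.5), and 1.74 to 2.32 on HFD (median 1.93). In each of the 3 comparisons every HFD library lay above every CHOW library of its time, though at 8 weeks the nearest pair differed by little.

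On the log2 scale the ratio was higher on HFD by 0.38 at 8 weeks, 0.54 at 20 weeks and 0.45 at 34 weeks, which is 1.30-fold, 1.45-fold and 1.36-fold. Exact two-sided permutation tests over libraries gave p = 0.00952, 0.00433 and 0.00117, each the smallest its group sizes allow, and adjusted p = 0.0171, 0.00974 and 0.00974 over the 9 ratios tested. The 8 week call was lost when HFD replicates 3 and 6 of that time were left out (0.38, adjusted p = 0.0514). At 34 weeks the difference without the 3 adipocyte-rich CHOW libraries was 0.35 (adjusted p = 0.0171).

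The macrophage markers also moved with diet at 20 weeks. Their sum ran from 5988 to 14884 TPM on CHOW and from 11489 to 19671 on HFD, with 6 of the 12 genes called higher and 0 lower, and 9 of 9 genes of lipid-associated macrophages were higher (sums of 1581 to 5615 TPM on CHOW and 8813 to 14952 on HFD). CHOW replicate 2 of 20 weeks had the highest macrophage sum of its group and the lowest ratio, 1.34, and CHOW replicate 3 of 8 weeks had the highest sum of its group (13888 TPM) and likewise the lowest ratio, 1.17. Among the CHOW libraries of 34 weeks it was the other way: replicate 3 had the highest sum (24070 TPM) and the highest ratio, 1.62, and replicate 6 the lowest sum (5694 TPM) and the lowest ratio, 0.991. The part of macrophage content in the ratio difference was not tested. Over the 34 libraries the deviations of the ratio from its group means had r = 0.32 with those of the macrophage score and r = 0.37 with those of the lipid-associated macrophage score, as a description. With the adipocyte score r was of like size and negative, at −0.37. It was 0.11 with the erythroid score and −0.13 with the resident macrophage score.

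The alignment of Ftl1 is uncertain in 1 respect. A gene named as a copy of it, Ftl1-ps1 on chromosome 13 (74399694 to 74407346), was also listed, and reads could have been split between them. It was listed at 0 to 14.0 TPM against 4970 TPM or more for Ftl1, and adding it to Ftl1 left the ratio differences at 0.38, 0.54 and 0.44.

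**Figure D2:**
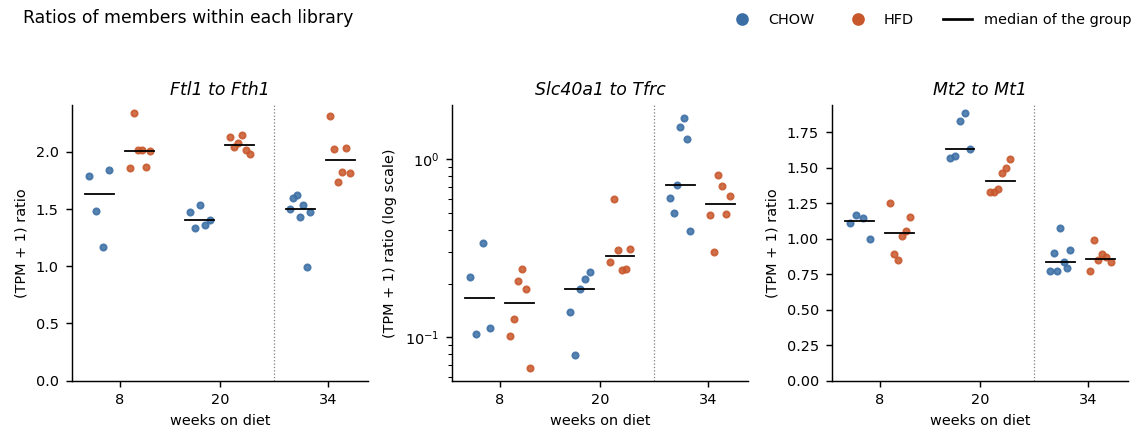
Ratio of the TPM + 1 values of gene pairs within each library, by weeks on diet, with CHOW in blue, HFD in orange and the group median as a line; the middle axis is on a log scale. Ftl1 to Fth1 is higher in every HFD library than in every CHOW library of its time, and Mt2 to Mt1 is highest at 20 weeks.

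Hmox1 (chromosome 8, 75093621 to 75100589) was lower on HFD at 20 weeks. Its 5 CHOW libraries held 1198, 1034, 1129, 1567 and 948 TPM and its HFD libraries 397 to 699 with a median of 500, without overlap. It fell by 1.16 ± 0.34 log2 (0.447-fold, adjusted p = 0.0283). That call was lost without any 1 of 5 libraries, CHOW replicates 3 or 4 or HFD replicates 3, 4 or 5. In those fits the adjusted p reached 0.0802 and the difference was −1.17 to −1.05. Over all 11 fits without 1 library the difference stayed between −1.25 and −1.05. The call was also lost without the filter on low values (adjusted p = 0.0551).

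At 8 weeks the Hmox1 values were 2012, 1488, 2329 and 3544 TPM on CHOW and 270 to 1594 with a median of 825 on HFD. Of the 6 HFD libraries, 4 lay below every CHOW library. The difference was −1.496 ± 0.36 log2 with an unadjusted p of 0.000487, but its adjusted p was 0.139. With samples weighted by their quality it was called (−1.24, adjusted p = 0.0405). The test of the difference between the times gave 0.34 ± 0.50 (adjusted p = 0.770).

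At 34 weeks the diets overlapped, at 141 to 603 TPM on CHOW (median 340) and 232 to 584 on HFD (median 404), with a difference of 0.24 log2 (95% interval −0.41 to 0.88). Medians on CHOW went from 2170 TPM at 8 weeks to 1129 at 20 weeks and 340 at 34 weeks. The fitted change from 8 to 20 weeks was −0.95 ± 0.38 on CHOW (adjusted p = 0.286) and −0.61 ± 0.32 on HFD (adjusted p = 0.232). The 34 week libraries came in a separate table that was fitted alone, so that step was not tested.

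The SVF pellets had been treated with a buffer that lyses red cells, so hemoglobin RNA here is what was left after that step. It moved with diet at 20 weeks, at 2.73% to 13% of the total on CHOW and 1.26% to 3.04% on HFD. The erythroid list summed to 27335 to 130031 TPM on CHOW and 12623 to 30451 on HFD, with 5 of 7 tested genes lower. At 8 weeks the share was 3.52% to 9.03% on CHOW and 3.31% to 26.7% on HFD, which overlap, beside the Hmox1 difference given above for that time. With hemoglobin as a covariate at 20 weeks the Hmox1 difference was −1.18 (adjusted p = 0.195). It was −1.33 with the macrophage score and −1.40 with the adipocyte score (adjusted p = 0.0967 and 0.145). Resident macrophage markers summed to 1272 to 2197 TPM on CHOW and 805 to 1329 on HFD at 20 weeks, with 4 of 7 genes lower. Their part in the Hmox1 difference was not tested.

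The metallothioneins changed with both time and diet. Mt1 (chromosome 8, 94179082 to 94180327) and Mt2 (chromosome 8, 94172664 to 94173568) are neighbours, with 5513 bases between them, and over the 34 libraries their deviations from the group means had r = 0.96, the highest of any gene with Mt1. Matches to the core of the metal response element are shown because zinc acts on these genes through that element. The core was searched as TGCACNC or TGCGCNC on both strands in RefSeq promoters of GRCm38.p6, from 250 bases before to 50 after each annotated start. Of 32544 promoters 25.9% held at least 1 core, 1.99% held 3 or more and 0.522% held 4 or more. Mt1 held 3 and Mt2 held 4. Mt1 cores 2 and 3 and Mt2 core 4 began after the annotated start, at bases 3, 21 and 5. All are sequence matches, and their use by MTF1 was not tested. Cores are in capitals in windows of 27 bases on the plus strand.
Mt1 core 1, chr8:94179056-94179082: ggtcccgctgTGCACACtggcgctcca
Mt1 core 2, chr8:94179081-94179107: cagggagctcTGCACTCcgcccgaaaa
Mt1 core 3, chr8:94179099-94179125: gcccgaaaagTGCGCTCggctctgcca
Mt2 core 1, chr8:94172385-94172411: gcatcgcctcTGCACCCggcccctcgg
Mt2 core 2, chr8:94172480-94172506: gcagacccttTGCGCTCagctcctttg
Mt2 core 3, opposite strand, chr8:94172558-94172584: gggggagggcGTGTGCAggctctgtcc
Mt2 core 4, opposite strand, chr8:94172612-94172638: aattcgggtcGTGCGCAggcccagggg
Promoters were matched for 7 of the 9 genes. Of the other promoters only 1 of the pair listed for Tfrc held a core, with 2 matches.

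From 8 to 20 weeks both metallothioneins rose on both diets. On CHOW, Mt2 went from 1884, 2428, 1711 and 1591 TPM to 4397, 5324, 6042, 4882 and 5866 TPM, without overlap, a rise of 1.49 ± 0.21 log2 (2.80-fold, adjusted p = 0.00174). On HFD it went from 827 to 1617 TPM (median 1100) to 2027 to 3595 TPM (median 3152), again without overlap, a rise of 1.26 ± 0.18 (2.40-fold, adjusted p = 0.000164). Mt2 stayed called in both time comparisons under every alternative tried.

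Mt1 rose less. On CHOW it went from 1701, 2077, 1489 and 1599 TPM to 2806, 3370, 3298, 2591 and 3585 TPM, a rise of 0.87 ± 0.18 (1.82-fold, adjusted p = 0.0292). On HFD it went from 872 to 1529 TPM (median 1146) to 1500 to 2375 TPM (median 2136), a rise of 0.80 ± 0.15 (1.74-fold, adjusted p = 0.00220). The CHOW call for Mt1 was lost when any 1 of 4 libraries was left out, CHOW replicates 3 or 5 of 20 weeks or 1 or 4 of 8 weeks, with an adjusted p of up to 0.128, and with same-numbered libraries as a block (0.81, adjusted p = 0.0622).

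Diet went the other way at 20 weeks. For both genes the highest HFD library was below the lowest CHOW library. Mt1 fell by 0.65 ± 0.16 log2 on HFD (0.637-fold, adjusted p = 0.0107) and Mt2 fell by 0.90 ± 0.19 (0.534-fold, adjusted p = 0.00422). With the macrophage score as a covariate they differed by −0.62 and −0.81 (adjusted p = 0.0840 and 0.0644), and with the adipocyte score by −0.48 and −0.71 (adjusted p = 0.255 and 0.171). Adipocyte markers summed to 4707 to 7831 TPM on CHOW and 3162 to 5280 on HFD at that time, with 6 of 10 genes lower and 1 higher, and their part in the metallothionein difference was not tested. These comparisons share their 20 week libraries with the rises over time on each diet. At 8 weeks the differences were −0.58 ± 0.17 for Mt1 and −0.68 ± 0.21 for Mt2, with adjusted p of 0.233 and 0.254 and unadjusted p of 0.00272 and 0.00333.

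At 34 weeks Mt2 ran from 944 to 4716 TPM on CHOW (median 1476) and 917 to 2119 on HFD (median 1642), with a difference of 0.05 log2 (95% interval −0.66 to 0.76). CHOW replicate 4 held 4378 TPM of Mt1 and 4716 TPM of Mt2, and the other 6 CHOW libraries held at most 2157 and 1716 TPM.

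The split between the metallothioneins shifted as well. Mt2 to Mt1 was 1.11, 1.17, 1.15 and 0.995 on CHOW at 8 weeks and 1.57, 1.58, 1.83, 1.88 and 1.64 at 20 weeks. On HFD it was 0.850 to 1.25 at 8 weeks and 1.33 to 1.56 at 20 weeks, and at 34 weeks it was 0.772 to 1.08 on CHOW and 0.769 to 0.994 on HFD. At 20 weeks the ratio was lower on HFD in all 6 libraries than in any CHOW library, by 0.25 log2 (0.838-fold, exact two-sided permutation p = 0.00433, adjusted p = 0.00974). At 8 and 34 weeks the differences were −0.10 (adjusted p = 0.551) and 0.01 (adjusted p = 0.939).

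The proteins that let iron out of and into cells had far lower message levels than ferritin, per length. Slc40a1 (chromosome 1, 45908068 to 45926523), the only known cellular iron exporter, held 8.34, 2.65, 9.10, 6.96 and 6.02 TPM on CHOW at 20 weeks and 5.28 to 16.1 on HFD (median 10.3). The groups overlapped, and the difference was 0.59 ± 0.31 log2 (95% interval −0.06 to 1.24, adjusted p = 0.212). At 8 weeks CHOW held 16.96, 10.03, 12.72 and 12.97 TPM and HFD 4.62 to 15.2. At 34 weeks CHOW held 10.2 to 75.7 TPM and HFD 9.58 to 32.8, with the highest value in the adipocyte-rich CHOW replicate 5.

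Tfrc (chromosome 16, 32608920 to 32632794) held 81.7, 105, 39.5 and 123 TPM on CHOW at 8 weeks and 66.3, 44.9, 52.9, 36.7 and 29.2 at 20 weeks. On HFD it held 46.9 to 86.2 TPM at 8 weeks and 25.3 to 54.7 at 20 weeks. The fitted fall over time was of like size on both diets, 0.85 ± 0.30 on CHOW (adjusted p = 0.215) and 0.85 ± 0.26 on HFD (adjusted p = 0.0453), and the difference between them was −0.0011 (95% interval −0.82 to 0.82). The CHOW change was called with samples weighted by their quality (−1.08, adjusted p = 0.0102). It was also called without CHOW replicate 3 of 8 weeks (−1.18, adjusted p = 0.0416). The HFD call was lost without any 1 of 8 libraries, HFD replicates 2, 4, 5 or 6 of 20 weeks or 1, 2, 5 or 6 of 8 weeks (adjusted p of up to 0.101). That call was also lost under 7 of the other alternatives, among them the fit without the libraries that stood apart. Diet differences in Tfrc were −0.37 at 8 weeks, −0.37 at 20 weeks and 0.08 at 34 weeks, with adjusted p of at least 0.373.

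Set against each other within a library, the exporter and the importer differed by diet at 20 weeks. Slc40a1 to Tfrc was 0.139, 0.0794, 0.188, 0.211 and 0.232 on CHOW and 0.239 to 0.595 on HFD (median 0.286), with every HFD library above every CHOW library, although the closest 2 nearly touched. The ratio was 0.96 log2 higher (1.95-fold, exact two-sided permutation p = 0.00433, adjusted p = 0.00974), and 0.71 higher without CHOW replicate 2 of 20 weeks (adjusted p = 0.0171). At 8 and 34 weeks the ratio differed by −0.28 (adjusted p = 0.686) and −0.62 (adjusted p = 0.219), the other direction.

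Slc11a1 (chromosome 1, 74375195 to 74386062), made by macrophages and neutrophils, held 100, 169, 61.7, 70.6 and 74.4 TPM on CHOW at 20 weeks and 128 to 253 on HFD (median 193). Of the 5 CHOW libraries, replicate 2 overlapped the HFD range. Slc11a1 rose by 1.03 ± 0.28 log2 (2.05-fold, adjusted p = 0.0203). The call was lost without CHOW replicates 3, 4 or 5, with an adjusted p of up to 0.0648. With the macrophage score as a covariate the difference was 0.16 (adjusted p = 0.553). It was 0.39 with hemoglobin and 0.15 with the adipocyte score (adjusted p = 0.500 and 0.843). At 8 weeks Slc11a1 stood at 63.9 to 168 TPM on HFD against 89.3, 112, 186 and 83.5 on CHOW, and at 34 weeks at 150 to 238 TPM on HFD against 37.3 to 242 on CHOW, with differences of −0.06 and 0.50 (adjusted p = 0.990 and 0.535). It followed the macrophage markers most closely of all 9 genes, with r = 0.94 between the deviations of its level and of the macrophage score.

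Cp (chromosome 3, 19957054 to 20009145) gave the smallest adjusted p of the 9 for diet. It held 244, 277, 244, 208 and 180 TPM on CHOW at 20 weeks and 65.7 to 138 on HFD (median 106), and it fell by 1.18 ± 0.19 log2 (0.441-fold, adjusted p = 0.000456). The groups did not overlap at 8 weeks either, at 194, 186, 164 and 199 TPM against 74.8 to 150 (median 96.4), where the difference was −0.83 ± 0.20 with an adjusted p of 0.146. At 34 weeks the values were 49.1 to 105 TPM on CHOW and 50.4 to 90.3 on HFD, and the difference was −0.03 (95% interval −0.45 to 0.39). Cp stayed called at 20 weeks without any 1 library, and with hemoglobin or the macrophage score as a covariate. With the adipocyte score the difference was −0.90 (adjusted p = 0.109). Mesothelial genes moved the same way at 20 weeks, 208 to 751 TPM on CHOW and 68.5 to 219 on HFD with 7 of 7 genes lower, as did neutrophil genes, 224 to 1437 TPM against 36.7 to 516 with 2 of 6 lower. The deviations of Cp had r = 0.35 with the mesothelial score and 0.015 with the neutrophil score. Resident macrophage genes, with which Cp had r = 0.53, moved as given above for Hmox1. Adipose progenitor and fibroblast genes (r = 0.51) summed to 6261 to 8894 TPM on CHOW and 4423 to 8212 on HFD, with 1 of 8 genes higher and 2 lower. Their part in the Cp difference was not tested.

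Counted together, 6 of the 9 genes were called by diet at 20 weeks, 2 higher (Ftl1 and Slc11a1) and 4 lower (Hmox1, Cp, Mt1 and Mt2). The 9 were chosen with earlier results of these data known, so such counts are a description. Over all genes tested 14.3% were called in that comparison, 9.32% higher and 4.99% lower. Of the calls 65.1% were higher, a share that was 45.8% after quantile normalisation. The count was 3 without CHOW replicate 4 of that time. Groups did not overlap for 5 of the 9 genes, against 9.19% of all genes. At 8 weeks 0 of 9 were called against 0.0238% of all genes, and 5 of the 9 (Fth1, Hmox1, Cp, Mt1 and Mt2) had an unadjusted p under 0.05, as had 1630 of all 16808 genes. Cp alone did not overlap, against 2.11% of all genes. The 9 fitted values were below 0 at that time, while the median over all genes was −0.08 log2, and Slc11a1 turned to higher under either scaling and Ftl1 under quantile normalisation. At 34 weeks 0 of 9 were called against 0.243%, with 0 of 9 and 1848 of 13982 at an unadjusted p under 0.05, and none was without overlap (0.937% of all genes). From 8 to 20 weeks 2 of 9 were called on CHOW, both higher, against 0.613% of all genes (0.458% higher). On HFD 4 of 9 were called against 8.78%, namely Ftl1, Mt1 and Mt2 higher (6.12% of all genes) and Tfrc lower (2.65%). Over time 3 genes did not overlap on CHOW (Slc40a1, lower, Mt1 and Mt2, against 6.28%) and 1 on HFD (Mt2, against 4.17%). For the diet by time interaction, which asks whether the HFD difference at 20 weeks departed from that at 8 weeks, 0 of 9 were called against 0.297%, and 4 of the 9 (Ftl1, Fth1, Slc40a1 and Slc11a1) had an unadjusted p under 0.05, as had 2318 of all genes. The largest such values were 1.24 ± 0.46 for Slc40a1, 1.09 ± 0.41 for Slc11a1 and 0.96 ± 0.30 for Ftl1, with adjusted p of 0.289, 0.296 and 0.225.

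**Figure D3:**
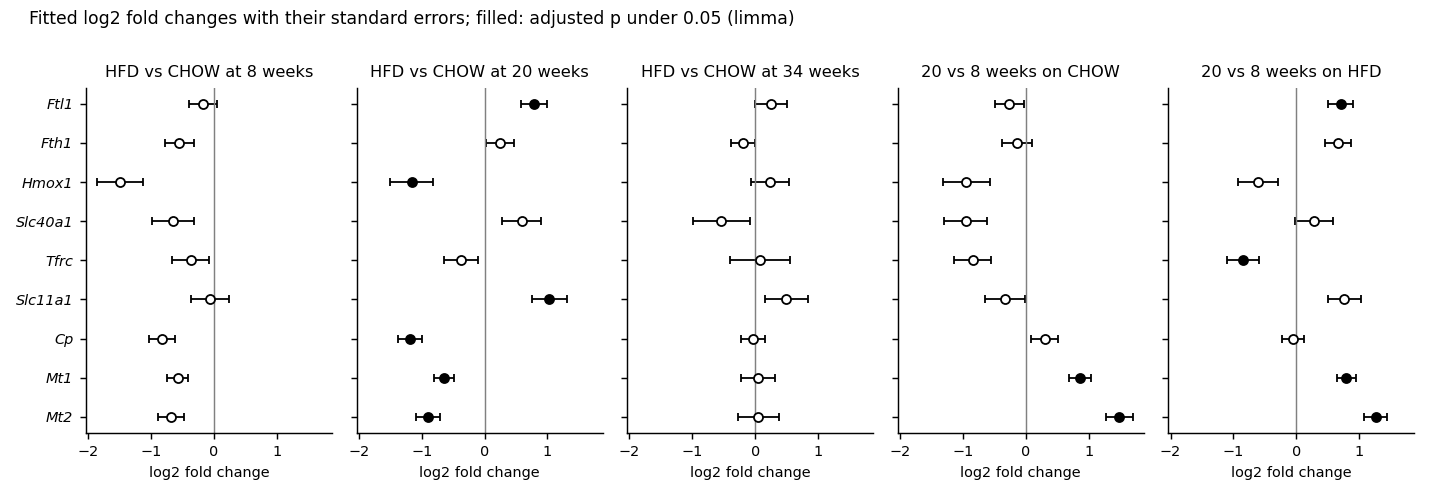
Fitted log2 fold changes of the 9 genes in 5 comparisons, with standard errors as bars; filled points have an adjusted p under 0.05 (limma). At 20 weeks Ftl1 and Slc11a1 lie to the right and Hmox1, Cp, Mt1 and Mt2 to the left, and Mt1 and Mt2 rise with time on both diets.

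The wider pathway was read from 8 lists of 118 genes. At 20 weeks 28 of 111 tested genes were called by diet (25.2%, against 14.3% of all genes), 14 higher and 14 lower. Over all genes 9.32% were higher and 4.99% lower, the shares to set beside each list's counts below. The lists were chosen with earlier results of these data known, so these counts are a description. At 8 and 34 weeks 0 of 111 and 0 of 104 were called. From 8 to 20 weeks 13 were called on HFD (11.7%, against 8.78%) and 1 on CHOW.

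Genes of hemoglobin and heme handling moved both ways at 20 weeks, with 6 of 14 higher and 3 lower and a list median of 0.24 log2 against 0.08 over all genes. Cd163, the hemoglobin and haptoglobin scavenger receptor of resident macrophages, went from 216 ± 24.1 TPM on CHOW (SD, n = 5) to 41.5 ± 14.2 on HFD (n = 6), and fell by 2.41 ± 0.22 (adjusted p = 1.14e-06). Hp, haptoglobin itself, fell by 1.82 ± 0.31 (adjusted p = 0.000713), from 535 ± 372 to 133 ± 30.8 TPM. On the intracellular side Hmox2, the constitutive heme oxygenase, rose by 0.97 ± 0.22 (adjusted p = 0.00550), from 42.2 to 57.9 TPM on CHOW to 66.7 to 181 TPM on HFD. Blvra, biliverdin reductase, the next enzyme, rose by 1.26 ± 0.22 (adjusted p = 0.00107), from 52.3 ± 17.4 to 125 ± 29.7 TPM. Hmox1 fell and Hmox2 rose in the same comparison. Germ cell sums reached higher values on HFD at that time, as given above, and their part in the Hmox2 difference was not tested.

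Cd163 was also the only listed gene called in the diet by time interaction, at −1.82 ± 0.32 (adjusted p = 0.0155). On HFD it fell from 110 ± 21.7 TPM at 8 weeks to 41.5 ± 14.2 at 20 weeks. At 34 weeks Cd163 differed by −1.54 ± 0.41 and Hp by −2.45 ± 0.70 (adjusted p = 0.149 and 0.176).

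Of the genes of cellular iron transport 1 of 15 was higher and 4 lower at 20 weeks. Lcn2, lipocalin 2, which binds the siderophores of bacteria and is made by neutrophils among other cells, fell by 2.39 ± 0.54 (adjusted p = 0.00651), and its CHOW values ran from 78.0 to 354 TPM. Slc39a8, an importer of zinc, manganese and iron, fell by 1.82 ± 0.35 (adjusted p = 0.00183), from 39.7 ± 6.45 to 10.5 ± 1.35 TPM. Mcoln1, a channel that lets iron out of lysosomes, rose by 0.53 ± 0.14 (adjusted p = 0.0164). The hepcidin axis had 0 of 9 genes higher and 2 lower, Id1 (−0.90) and Smad6 (−0.80), target genes of BMP signals, both called by a narrow margin (adjusted p = 0.0423 and 0.0499). Hepcidin itself, Hamp, did not exceed 3.18 TPM in any library.

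The genes that turn ferritin over and read cellular iron were not called. Of 6 tested, 0 passed in any comparison, among them Aco1 and Ireb2, the iron regulatory proteins, and Ncoa4, the cargo receptor that takes ferritin to the lysosome. At 20 weeks Ncoa4 held 159 ± 26.0 TPM on CHOW and 130 ± 25.8 on HFD, and Aco1 held 27.5 ± 4.48 and 33.8 ± 4.72.

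Among 18 genes of mitochondrial iron, iron-sulfur clusters and heme synthesis 2 were higher at 20 weeks and 0 lower. Over all genes 9.32% were higher and 4.99% lower. Alas1, the first enzyme of heme synthesis outside red cells, rose by 0.90 ± 0.18 (adjusted p = 0.00279), and Nfs1, the cysteine desulfurase of iron-sulfur clusters, rose by 0.40 ± 0.12 (adjusted p = 0.0264). From 8 to 20 weeks on HFD Alas1 rose by 1.07 ± 0.17 (adjusted p = 0.000463).

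Of 26 zinc and copper genes 3 were higher at 20 weeks and 1 lower, near the shares over all genes (9.32% and 4.99%). Slc39a11, a zinc transporter, rose by 1.54 ± 0.29 (adjusted p = 0.00160), and Commd1, a copper-handling protein, rose by 0.63 ± 0.19 (adjusted p = 0.0297). The 1 listed gene called on CHOW over time was Slc30a1, the zinc exporter of the cell membrane, which fell by 1.12 ± 0.26 (adjusted p = 0.0469) while Mt1 and Mt2 rose. Its call was lost without any 1 of the 9 libraries.

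NRF2, a sensor of oxidative stress, drives Hmox1 and the ferritin chains among others. Of 13 further target genes 1 was higher at 20 weeks, Gpx4 (0.49 ± 0.14, adjusted p = 0.0261), and 1 was lower, Gsr (−0.89 ± 0.29, adjusted p = 0.0462). Over all genes 9.32% were higher and 4.99% lower in that comparison. The part of the germ cell genes in the Gpx4 difference was not tested. From 8 to 20 weeks on HFD 3 of 13 were higher (against 6.12% of all genes) and 0 lower. In front were Txnrd1 (1.00 ± 0.20, adjusted p = 0.00320) and Srxn1 (0.87 ± 0.24, adjusted p = 0.0299).

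Glucocorticoids act on the metallothioneins too. Of 10 glucocorticoid-responsive genes 3 were lower on HFD at 20 weeks and 1 higher, with a list median of 0.05 against 0.08 over all genes. Fkbp5, a chaperone that rises with the hormone, fell by 1.15 ± 0.22 (adjusted p = 0.00195), and Hsd11b1, which activates the hormone in tissue, fell by 1.05 ± 0.24 (adjusted p = 0.00730). Dusp1, a phosphatase, rose by 0.63 ± 0.18 (adjusted p = 0.0233). Over time Fkbp5 was not called on either diet, and on HFD Hsd11b1 fell by 1.52 ± 0.23 (adjusted p = 0.000259) while Cdkn1a rose by 0.81 ± 0.16 (adjusted p = 0.00248).

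Other genes named over time on HFD by the same rule were Slc11a2, the iron importer DMT1 (0.87 ± 0.23, adjusted p = 0.0199), Flvcr1, a heme exporter (0.57 ± 0.15, adjusted p = 0.0222), Lrp1, the receptor for heme bound to hemopexin (0.92 ± 0.17, adjusted p = 0.00174), and Slc39a1, a zinc importer (0.55 ± 0.16, adjusted p = 0.0363). Those that fell were Cd163 (−1.43 ± 0.21, adjusted p = 0.000163), Slc39a8 (−1.34 ± 0.33, adjusted p = 0.0147) and Bmp6, a ligand of the hepcidin axis (−0.96 ± 0.26, adjusted p = 0.0282).

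Several of these calls did not hold with 1 library left out. At 20 weeks Gsr lost its call in 10 of 11 such fits, Id1 in 8, Smad6 in 7, Nfs1 and Commd1 in 5, Gpx4 in 4 and Dusp1 in 2 (adjusted p of up to 0.144). Over time on HFD Slc39a1 lost its call in 7 of 12, Bmp6 and Srxn1 in 3 and Flvcr1 in 1 (adjusted p of up to 0.0880).

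**Figure D4:**
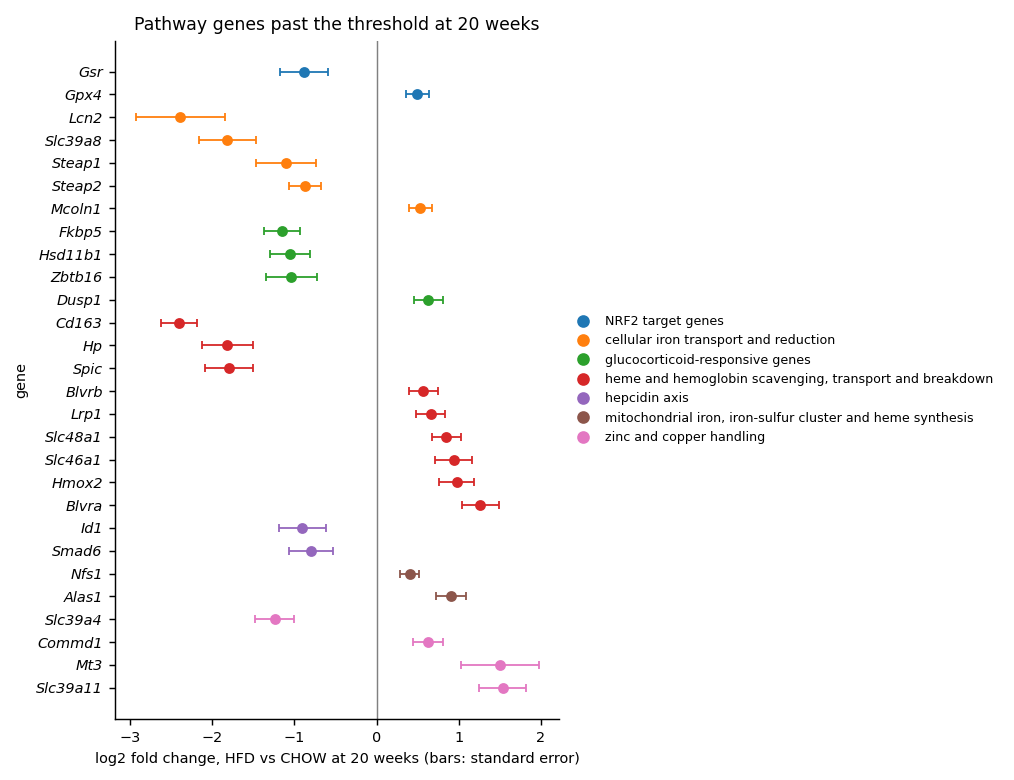
The 28 listed pathway genes with an adjusted p under 0.05 for HFD against CHOW at 20 weeks, as log2 fold changes with standard errors, coloured by list. Cd163 and Hp lie far to the left, and Blvra, Hmox2 and Slc39a11 to the right.

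The genes with the most similar pattern were sought over the 34 libraries, as deviations from each group's mean, among 13944 genes tested in both tables. The libraries share depth, cell makeup and table, so these correlations describe the libraries and are given without a test. Ftl1 lay nearest to Lgals3, Atp6v1c1 and Lamp1 (r = 0.95, 0.95 and 0.93), and Fth1 to Tmem189, Atp6v0c and Ftl1 (0.90, 0.90 and 0.89). Slc11a1 lay nearest to the leukocyte genes Itgb2, Lcp1 and Laptm5 (0.97, 0.96 and 0.96). Among those nearest to Hmox1 were Fnip2 and Atp6v1h (0.80 and 0.79). Cp lay nearest to Col6a6, Scn7a and Svep1 (0.82, 0.80 and 0.78). For Mt1 they were Mt2, Zfp598 and Lbp (0.96, 0.79 and 0.78), and for Mt2 they were Mt1, Slc7a6 and Zfp598 (0.96, 0.82 and 0.81). Tfrc lay nearest to Abcg3, Ear2 and Wdr20 (0.82, 0.75 and 0.74), and Slc40a1 to Fcna, 5031425F14Rik and Hpse (0.74, 0.70 and 0.70).

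Ftl1, Fth1 and Slc11a1 rose and fell together from library to library (r = 0.84 to 0.89), and Hmox1 went with them less closely (0.48 to 0.65). Tfrc had r = −0.64 with Mt1 and −0.61 with Mt2. The ferritin chains followed the macrophage score (0.78 for Ftl1 and 0.70 for Fth1) and the metallothioneins did not (−0.07 and −0.05). Mt1 and Mt2 had their highest r among the 9 marker lists compared with the adipose progenitor and fibroblast score (0.45 and 0.48), and Slc40a1 had its highest with the resident macrophage score (0.41).

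**Figure D5:**
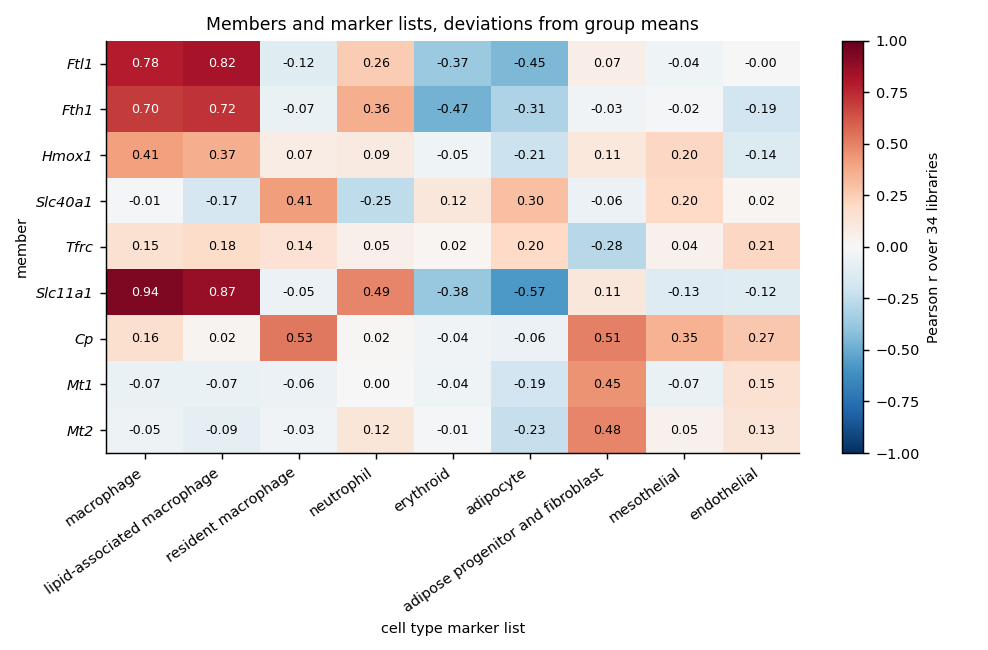
Pearson r over 34 libraries between the deviation of each gene's level and that of the mean level of each marker list from the group means, coloured from −1 (blue) to 1 (red). Slc11a1 and the ferritin chains are darkest against the macrophage and lipid-associated macrophage lists, at 0.70 or more, and Mt1 and Mt2 are near 0 there.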

How the data were processed

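RNA from the SVF of visceral fat was sequenced in 34 libraries with a stranded mRNA kit. Per the labels and the study's methods, the authors trimmed reads with Trimmomatic, quantified transcripts with Salmon against GENCODE M10 (mm10) and summed them to genes (no versions were stated). The values they deposited are TPM per gene, each library summing to 1000000, in 1 table for 8 and 20 weeks (21 libraries) and 1 for 34 weeks (13 libraries). The authors' own test, DESeq2 on counts, could not be run on TPM.

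Groups and replicate numbers came from the sample titles. Symbols and coordinates came from GENCODE M21 (GRCm38), which matched 31791 of 32098 IDs. The labels give no cage or batch, and p-values measure the spread between these libraries.

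Genes that reached 1 TPM in 4 libraries (8 and 20 weeks) or 6 (34 weeks) were tested on log2(TPM + 1) with limma 3.58.1 in R 4.3.3, two-sided, with group means and a mean-variance trend. Fold changes are on that scale and understate those of low genes. Benjamini-Hochberg adjustment ran over all genes of a comparison, with a threshold of 0.05. The 34 week table was fitted alone. The script was tested on simulated data. Within-library ratios were compared by exact permutation tests with SciPy 1.17.1. Named pathway genes were those called, at most the 2 highest and 2 lowest fold changes per list and comparison, with a mean of 5 TPM or more in a group. Of the 118 list genes, 117 were in the tables. The members and lists were chosen with earlier results of these data known. Alternatives covered the pseudocount, filter, scaling, covariates, sample weights, a replicate block and left-out libraries. The libraries left out together were chosen after seeing the data. Some genes that the rules would name are not reported here.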

Additional observations from a re-analysis of the deposited data

Results flagged for a closer look

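In the 54 sets of a gene and a group that were looked at, 1 library stood far from the others of its group by Dixon's test on log2(TPM + 1). It was CHOW replicate 4 at 34 weeks, with 4716 TPM of Mt2 where the next highest of the 7 libraries held 1716 TPM. Chance marks about 1 group in 20. The same library had the highest Mt1 (4378 TPM), the lowest Tfrc (6.87 TPM) and the highest adipose progenitor and fibroblast marker sum (12249 TPM) of its group, and the highest summed level of the glucocorticoid-responsive genes of all 34 libraries (3523 TPM), and their part in the Mt2 value was not tested.

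The HFD difference in Cd163 changed between 8 and 20 weeks, with an interaction of −1.82 log2 (adjusted p = 0.0155, limma). The difference was −0.59 at 8 weeks and −2.41 at 20 weeks. The interaction had an adjusted p of 0.174 with hemoglobin as a covariate and 0.0606 with the macrophage score, and it ran from −1.98 to −1.57 with any 1 library left out.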

How the results depend on the processing

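The 12 called values of the 9 genes kept their direction in 300 of 300 alternative fits and lost their call in 62, and called pathway genes lost theirs in 163 of 819. The number of the 9 genes called was 2 at 8 weeks with sample weights (Hmox1 and Cp). At 20 weeks it was 3 with the hemoglobin covariate, 1 with the macrophage covariate, 0 with the adipocyte covariate and 3 to 6 without single libraries. Over time on CHOW it was 1 without the filter, with the replicate block and with the adipocyte covariate, and 1 to 3 without single libraries. Over time on HFD it was 2 without the filter, with the macrophage covariate or without the libraries that stood apart, 1 with the hemoglobin or adipocyte covariate, and 2 to 5 without single libraries. It was 0 at 34 weeks and for the interaction in each setting run. The covariates are measured on the same libraries and move with diet, and the cause of these losses was not tested.

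Libraries shared only numbers: of 25 same-numbered pairs 10 had a correlation of deviations over 0.1 (range −0.10 to 0.40), and no comparison had every pair over it. With the replicate block as exact sign flips over pairs, the ratio differences were 0.41 (8 weeks, adjusted p = 0.188), 0.55 and 0.45 for Ftl1 to Fth1, 0.96 for Slc40a1 to Tfrc and −0.28 for Mt2 to Mt1 at 20 weeks (adjusted p = 0.113 each), where so few pairs limit p. Without HFD replicates 3 and 6, Ftl1 to Fth1 at 8 weeks was 0.38 (adjusted p = 0.0514).

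Uncalled values changed sign as follows. At 8 weeks Slc11a1 was 0.047 with median-ratio scaling, 0.085 with quantile normalisation, 0.018 without hemoglobin, germ cell and seminal vesicle genes, 0.29 with weights, 0.068 with the block and 0.20 without the libraries that stood apart, and Ftl1 was 0.21, 0.055 and 0.022 with quantile normalisation, weights and those libraries out. At 20 weeks Fth1 was −0.18, −0.27 and −0.37 with the hemoglobin, macrophage and adipocyte covariates. At 34 weeks Tfrc was −0.031 with median-ratio scaling, −0.032 with quantile normalisation, −0.37 with weights and −0.077 with the macrophage covariate, and Hmox1 −0.044 with the latter. With median-ratio scaling Mt1 and Mt2 were −0.069 and −0.063. With the adipocyte covariate Ftl1, Slc11a1, Mt1 and Mt2 were −0.021, −0.052, −0.14 and −0.21, and without the 3 CHOW libraries highest in Adipoq Ftl1, Mt1, Mt2 and the Mt2 to Mt1 ratio were −0.0021, −0.0042, −0.015 and −0.011. Over time, Ftl1 on CHOW was 0.20 with quantile normalisation, and on HFD Slc11a1 was −0.063 with the hemoglobin covariate, while Fth1, Slc11a1 and Cp were −0.053, −0.25 and 0.27 with the adipocyte covariate. The Tfrc interaction was 0.018 (pseudocount 5), 0.28 (weights), 0.30, 0.0017 and 0.043 (the 3 covariates in that order) and 0.010 (libraries out). Without single libraries the ranges were −0.20 to 0.18 for Slc11a1 at 8 weeks, −0.25 to 0.28 for Tfrc, −0.13 to 0.071 for Cp, −0.045 to 0.26 for Mt1 and −0.065 to 0.32 for Mt2 at 34 weeks, −0.27 to 0.086 for Fth1 over time on CHOW, −0.15 to 0.067 for Cp over time on HFD, −0.20 to 0.33 for the Tfrc and −0.17 to 0.015 for the Mt1 interaction, −0.52 to 0.051 for Slc40a1 to Tfrc at 8 weeks and −0.035 to 0.059 for Mt2 to Mt1 at 34 weeks.

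With all libraries or the sets above left out, counts over all genes moved from 4 to between 1 and 209 at 8 weeks, from 2405 to between 80 (adipocyte covariate) and 5092 (weights) at 20 weeks, from 34 to between 0 and 294 at 34 weeks, from 103 to between 33 and 1659 over time on CHOW, from 1475 to between 96 and 2745 on HFD, and from 50 to between 2 and 400 for the interaction. Quantile normalisation shifted the median of all genes by −0.14 at 20 and 34 weeks, −0.17 over time on HFD and −0.21 for the interaction, and moved the higher share of calls over time on HFD from 69.8% to 40.7%. TPM hides depth, so the counting error behind each value is unknown.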
